A study of Mus musculus with 4 samples.

Results

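The hyaluronan and cardiac jelly genes examined here were Has2, Hapln1, Vcan, Acan, Cd44, Hyal1 and Hyal2, chosen by symbol. They are 7 of the 27998 genes counted in each library, and each symbol was found in all 4 libraries. The study followed the Tie2-Cre lineage, the descendants of cells that expressed the endothelial receptor gene Tek, through the making of the mouse mitral valve. Cells came from embryos and, at P0, newborns of Tie2-Cre by Rosa26 tdTomato mice on the C57BL/6 strain. Red fluorescent cells were sorted for droplet single-cell RNA sequencing. The 3 groups were the atrioventricular canal (AVC) at E9.5 with 1 library, the mitral valve at E16.5 with 1 library, and the mitral valve at birth (P0) with 2 libraries. All groups carried the same driver and reporter, and a stage drew on at least 60 embryos, so each library pools animals. No label ties the P0 libraries to different litters, and p-values may therefore measure a technical spread.

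Hyaluronan is a long sugar chain that is made at the plasma membrane and swells with water. With the proteoglycan versican it fills the cardiac jelly between myocardium and endocardium, and endocardial cells move into this jelly to form the cushions from which the valve leaflets develop. Has2 encodes the main embryonic hyaluronan synthase, Hapln1 the link protein that locks proteoglycans onto hyaluronan, and Vcan and Acan the proteoglycans versican and aggrecan. Cd44 encodes a surface receptor for hyaluronan, and Hyal1 and Hyal2 encode enzymes that cut it.

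On GRCm38 (GENCODE annotation), Hapln1 lies on chromosome 13 from 89539796 to 89611652 on the plus strand. Vcan follows it on the same chromosome from 89655312 to 89742509 on the minus strand, and their 3′ ends are 43660 bases apart. Hyal2 (chromosome 9, 107567945 to 107572779, plus strand) and Hyal1 (chromosome 9, 107576927 to 107581710, plus strand) are separated by 4148 bases. Has2 lies on chromosome 15 (56665627 to 56694539, minus strand), Cd44 on chromosome 2 (102811141 to 102901665, minus strand) and Acan on chromosome 7 (79053483 to 79115099, plus strand). Values are counts per gene from 3′ libraries. Hyal1 overlaps Naa80, Hyal3 and the antisense gene Gm16343, and Hyal2 overlaps the antisense gene Gm9917. The counting strand is not given in the sources used here, so reads of these overlapping genes may not be told apart.

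Vcan and Cd44 took a larger share of their E9.5 UMIs (unique molecular identifiers, the counted transcripts) from cardiomyocyte-like cells than those cells made up of the library. For these genes the 250 bases before the start site hold no annotated exon, and they are shown to place these myocardium-weighted genes side by side. The sequences are from RefSeq (GRCm38.p6, minus strand, 5′ to 3′), and capitals mark matches on either strand to an E-box (CANNTG) or a GATA site (AGATAA).
Vcan, chr13:89742513-89742762: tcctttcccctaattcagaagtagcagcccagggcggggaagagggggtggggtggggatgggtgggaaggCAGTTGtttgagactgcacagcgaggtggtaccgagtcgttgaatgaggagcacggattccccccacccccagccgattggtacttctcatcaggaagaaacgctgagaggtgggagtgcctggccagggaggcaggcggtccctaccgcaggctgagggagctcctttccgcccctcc
Cd44, chr2:102901666-102901915: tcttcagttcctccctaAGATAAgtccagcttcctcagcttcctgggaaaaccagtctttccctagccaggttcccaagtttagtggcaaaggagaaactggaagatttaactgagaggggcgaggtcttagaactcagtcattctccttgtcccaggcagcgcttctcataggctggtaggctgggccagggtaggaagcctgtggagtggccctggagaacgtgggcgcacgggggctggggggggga
The Vcan window had 62.4% G or C, 10 CpG and 1 E-box, while the Cd44 window had 56.4% G or C, 5 CpG and 1 GATA site. Neither held a T-box site (GGTGTGA) or a TATA box (TATAAA). Among all 32851 RefSeq promoter windows of this length, 66.2% held an E-box, 9.99% the GATA site, 3.33% the T-box site and 12.4% the TATA box, with medians of 52.4% G or C and 6 CpG. The matches describe letters in these windows and nothing about binding. The table of promoters matched 6 of the 7 genes and lacked Has2. By the same rule Has2 was slightly over in cardiomyocyte-like cells (46.3% of its UMIs against 41.4% of cells). It was also over in the mixed endothelial and cushion cluster described below (30.7% against 8.81%) and in endothelial-like cells (11.7% against 7.13%). Has2 is therefore not called myocardium-weighted here.

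The libraries held 1206 (E9.5), 452 (E16.5), 291 and 211 (P0) cells, of which 1192, 312, 282 and 171 were kept. The median depth of kept cells was 24564.5 UMIs for E9.5, 2356 for E16.5, and 5159.5 and 4383 for the P0 replicates. The deposited barcode lists of the P0 libraries (211 and 291 entries) look exchanged against the matrices (291 and 211 cells) and shared 4 barcodes. Whether the lists or the matrices were exchanged is not known. The lists of E9.5 and E16.5 hold all 737280 barcodes of the chemistry. Cells were clustered within each library without the hyaluronan genes, and clusters were named from marker lists, so a name can differ from the authors' own. No E9.5 cluster met the cushion mesenchyme name alone. Cluster 5 (105 cells) had 10 of 12 endothelial and 6 of 12 cushion markers raised, among them Eng and Msx1, and is called the mixed cluster. Endothelial-like cluster 6 held 85 cells, led by Plvap, Ramp2 and Emcn. Unnamed cluster 3 (83 cells) had 8 of 12 cushion, 9 of 11 interstitial and 5 of 9 epicardial markers raised (6 of 12 cushion and 2 of 11 interstitial in cluster 5). It is in no comparison with P0. Cardiomyocyte-like cells, 41.4% of the E9.5 library, formed 5 clusters. A sort on the Tie2-Cre reporter is an endothelial-lineage gate that would remove cardiomyocytes, and reporter transcripts, which could check it, were not counted. In clusters 9 and 10 all 5 canal myocardium markers, among them Tbx2 and Bmp2, were raised. Levels are given as UMIs per 10000 UMIs of the same cells with exact 95% Poisson intervals, which cover counting error only. They compare cells and libraries for 1 gene, not genes with each other. E9.5 has 1 library, so differences between its clusters have no replicate check.

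At E9.5, Has2 was found on both sides of the jelly. The mixed cluster stood highest with 0.418 UMIs per 10000 (0.338 to 0.511, 95 UMIs), and cardiomyocyte-like cluster 10, led by Rspo3, stood next at 0.347 (0.272 to 0.435, 74 UMIs). Their intervals overlap, and the ratio was 1.21 with a counting interval of 0.880 to 1.66. Endothelial-like cluster 6 had 0.177 (0.124 to 0.246) and canal cluster 9 had 0.164 (0.122 to 0.215), again with overlapping intervals. Cluster 10 exceeded cluster 9 by 2.12-fold (1.46 to 3.09), so the canal-marked clusters were not alike. The other cardiomyocyte-like clusters were lower, with 0.0386 in cluster 0 (ventricular markers), 0.0329 in cluster 2 (led by Myh6) and 0.0121 in cluster 4 (led by Nppa). Cluster 10 was 10.5-fold (5.68 to 21.3) above cluster 2. Epicardial-like cells, the outer layer of the heart, had 0.109 (9 UMIs), and unnamed cluster 3 had 0.0623 (12 UMIs). Erythroid-like cells had 0.00377 (3 UMIs over 243 cells). Their levels are taken here as a rough level of free RNA. Whether these cells lack all of these transcripts was not tested.

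Of the 309 Has2 UMIs at E9.5, 46.3% lay in cardiomyocyte-like cells, 30.7% in the mixed cluster, 11.7% in endothelial-like cells and 2.91% in epicardial-like cells. A Has2 UMI was found in 46.7% of mixed, 25.9% of endothelial-like, 15.6% of cardiomyocyte-like and 1.23% of erythroid-like cells. Median depths of these classes were 22180, 21814, 23428 and 32399 UMIs. With every cell thinned to 5000 UMIs the first 3 shares were 26.7%, 11.8% and 5.27%. These shares rank the classes as their levels do. The other hyaluronan synthases were nearly absent: Has1 had 0 UMIs and Has3 had 2 in cardiomyocyte-like cells.

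**Figure D1:**
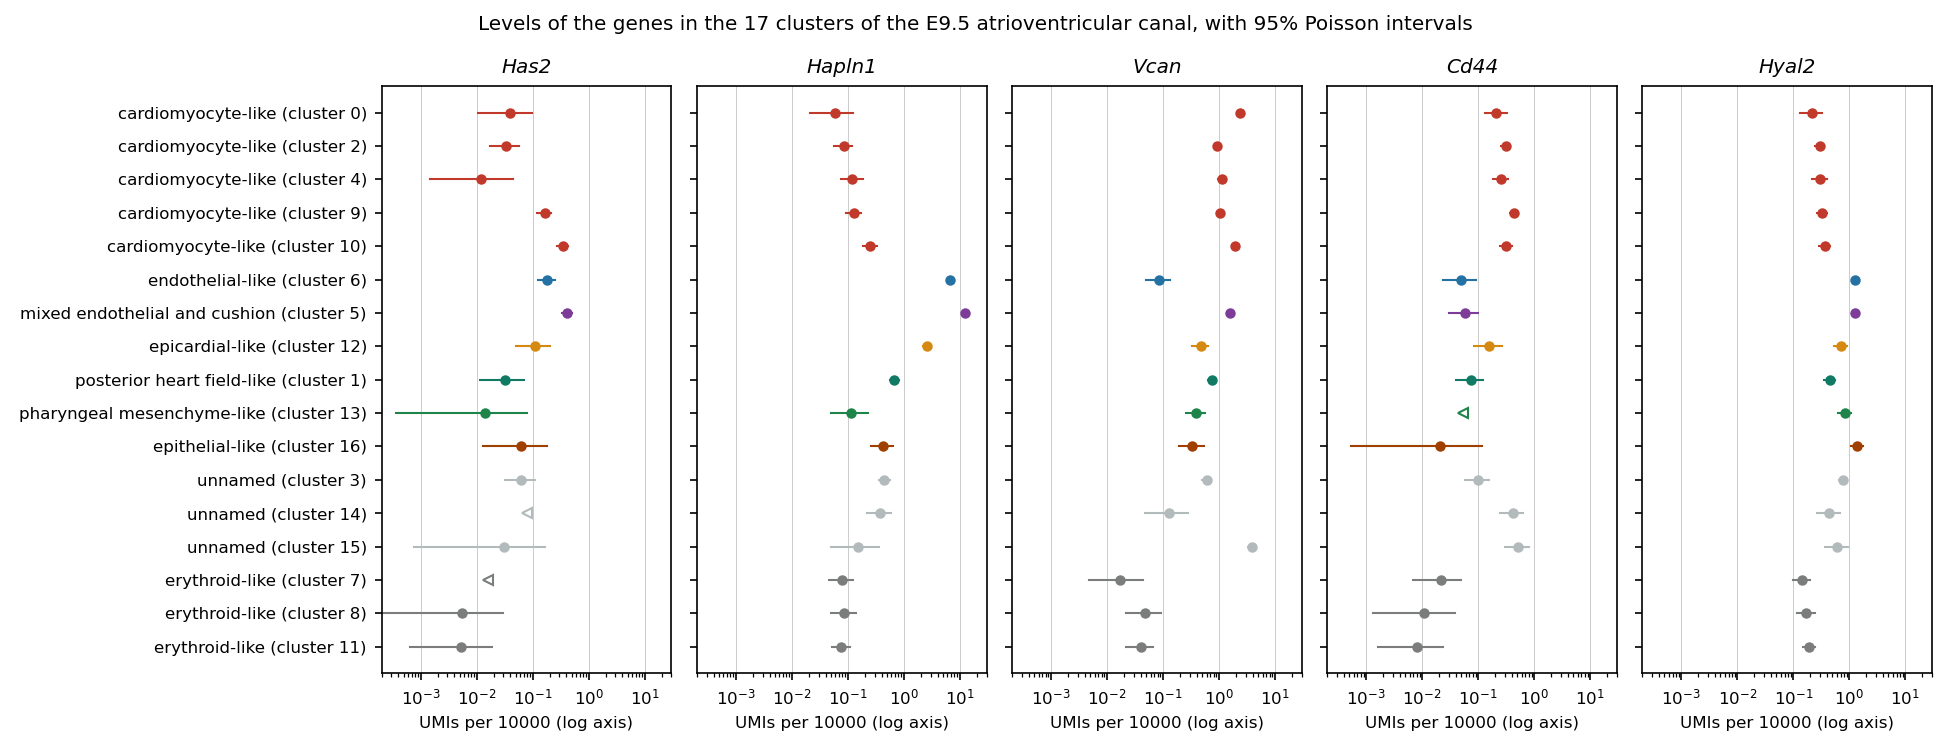
Levels of 5 genes in the 17 clusters of the E9.5 library, in UMIs per 10000 on a log axis, where points are clusters, lines are exact 95% Poisson intervals and open triangles mark the upper limit of clusters with 0 UMIs. Hapln1 peaked at 12.4 in the mixed cluster, while Vcan was 0.0838 in endothelial-like cluster 6 against 1.58 in the mixed cluster.

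Hapln1 marked the endocardial side. Its level was 12.4 per 10000 (11.9 to 12.8, 2814 UMIs) in the mixed cluster, 6.60 (6.25 to 6.96, 1339 UMIs) in endothelial-like cells and 2.57 (2.24 to 2.94, 213 UMIs) in epicardial-like cells. None of these intervals overlapped the next. The mixed cluster was 1.87-fold (1.76 to 2.002) above the endothelial-like cluster. Posterior heart field-like cells followed at 0.682, and unnamed cluster 3, led by Dlk1 and Ptn, at 0.452. Cardiomyocyte-like clusters lay between 0.0580 and 0.253, against 0.0792 in erythroid-like cells. Cluster 2 was 1.07-fold (0.676 to 1.68) and cluster 0 0.732-fold the erythroid-like level, which is taken here as background. Canal cluster 10 was 3.19-fold (2.18 to 4.67) above that level. Cardiomyocyte-like cells thus gave 3.12% of the 4846 Hapln1 UMIs, against 58.1% from the mixed and 27.6% from the endothelial-like cluster.

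Every cell of both endocardial clusters had a Hapln1 UMI (105 of 105 and 85 of 85). In single mixed cells the level ranged from 4.38 to 26.5 per 10000 with a median of 12.1, and in endothelial-like cells from 2.77 to 16.6 with a median of 6.41, so single cells of the clusters overlapped. At 5000 UMIs per cell, 99.0% of mixed, 94.1% of endothelial-like, 65.4% of epicardial-like, 7.30% of cardiomyocyte-like and 2.47% of erythroid-like cells had a Hapln1 UMI. Unthinned, the last 2 shares were 22.9% and 21.8%.

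Vcan was broad in myocardium and separated the endocardial clusters from each other. It stood at 3.91 per 10000 (3.26 to 4.64) in unnamed cluster 15 (15 cells, led by Myh7, Bmp4 and Rgs5), 2.35 (2.06 to 2.66) in ventricular-marked cluster 0 and 1.91 (1.73 to 2.11) in canal cluster 10. The mixed cluster had 1.58 (1.42 to 1.75, 359 UMIs). Clusters 4, 9 and 2 had 1.12, 1.03 and 0.931. Endothelial-like cluster 6 had 0.0838 (0.0488 to 0.134, 17 UMIs), 18.8-fold (11.6 to 32.7) below the mixed cluster and 2.38-fold (1.22 to 4.51) above erythroid-like cells. Without the filter on cells the endothelial-like level was 0.147. Summed cardiomyocyte markers were 19.9347 per 10000 in the mixed and 16.5005 in the endothelial-like cluster, and their part was not tested.

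Cardiomyocyte-like cells held 62.9% of the 2375 Vcan UMIs, the mixed cluster 15.1% and endothelial-like cells 0.716%. A Vcan UMI was found in 80% of mixed cells, 80.9% of cardiomyocyte-like, 14 of 85 endothelial-like and 9.88% of erythroid-like cells. At 5000 UMIs per cell these became 44.8%, 46.2%, 3.53% and 1.65%. The endothelial-like and mixed clusters therefore shared Hapln1 in every cell and parted in Vcan, whose median over single cells was 0 in the first and 1.35 per 10000 in the second. Acan was near the limit of detection, with 2 UMIs at E9.5 and 1 in P0 replicate 2.

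**Figure D2:**
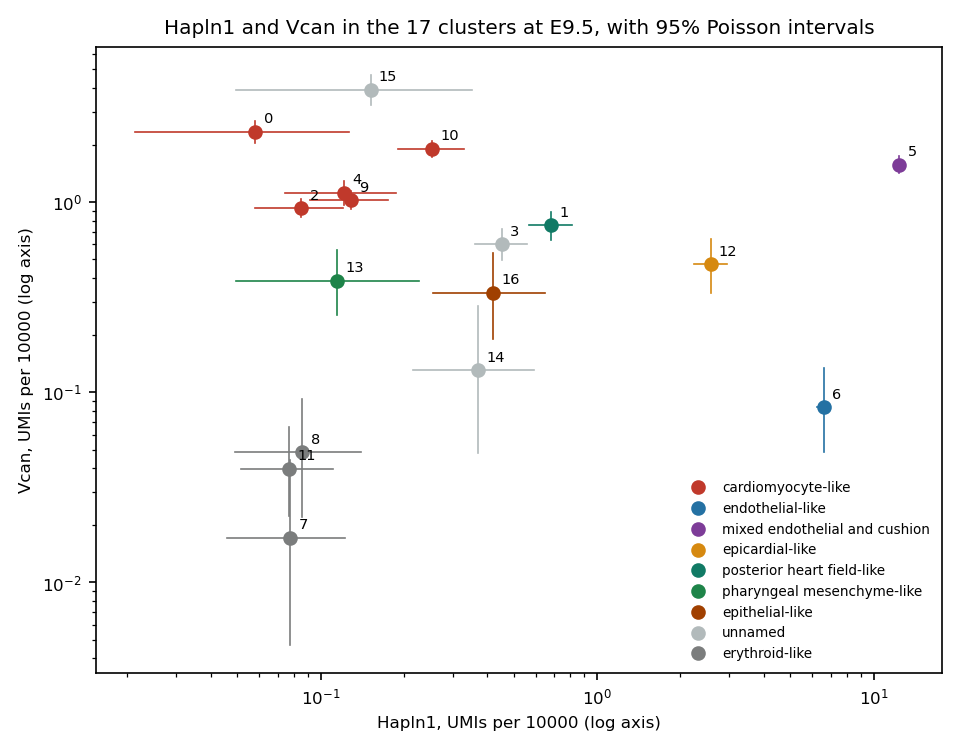
Level of Hapln1 (horizontal) and Vcan (vertical) in each of the 17 E9.5 clusters, both in UMIs per 10000 on log axes with exact 95% Poisson intervals, and numbers name the clusters. The mixed cluster 5 was high for both (12.4 and 1.58), the endothelial-like cluster 6 for Hapln1 only (6.60 and 0.0838), and the cardiomyocyte-like clusters for Vcan.

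Among the named clusters, the receptor gene Cd44 was highest in myocardium. Levels were 0.433 per 10000 (0.363 to 0.513, 135 UMIs) in canal cluster 9, 0.319 in canal cluster 10, 0.310 in cluster 2, 0.254 in cluster 4 and 0.212 in cluster 0. Unnamed clusters 15 and 14 had 0.515 and 0.414 from 17 and 19 UMIs, and neighbours in this order overlapped. Epicardial-like cells had 0.157, the mixed cluster 0.0572 (13 UMIs), endothelial-like cells 0.0493 (10 UMIs) and erythroid-like cells 0.0126. Canal cluster 9 was 8.79-fold (4.64 to 18.8) above endothelial-like cells, and the mixed cluster was 1.16-fold (0.470 to 2.95) the endothelial-like level. At a clustering resolution of 0.6 the endothelial-like level was 0.117. Of 496 Cd44 UMIs, 76.6% lay in cardiomyocyte-like cells, 2.62% in the mixed cluster and 2.02% in endothelial-like cells. At 5000 UMIs per cell, 13.2% of cardiomyocyte-like and 0.823% of erythroid-like cells had a Cd44 UMI, against 44.8% and 4.12% unthinned.

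Hyal2, a hyaluronidase anchored in the cell membrane, had its highest levels outside the myocardium. Epithelial-like cells had 1.38 per 10000 (66 UMIs), the mixed cluster 1.27 (1.13 to 1.43, 289 UMIs) and endothelial-like cells 1.26 (1.11 to 1.43, 256 UMIs). The last 2 had a ratio of 1.01 (0.848 to 1.20). Epicardial-like cells had 0.712 and cardiomyocyte-like clusters 0.212 to 0.370, against 0.172 in erythroid-like cells. Cluster 0 was 1.23-fold (0.749 to 1.94) the erythroid-like level. The endothelial-like cluster was 4.26-fold (3.39 to 5.38) above cardiomyocyte-like cluster 2. A Hyal2 UMI was found in 89.5% of mixed, 85.9% of endothelial-like, 47.9% of cardiomyocyte-like and 37.9% of erythroid-like cells, and at 5000 UMIs in 50.5%, 36.5%, 12.6% and 7.41%. Hyal1, which encodes a lysosomal hyaluronidase, had 66 UMIs in 59 cells, with 0.0528 (12 UMIs) in the mixed cluster.

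**Figure D3:**
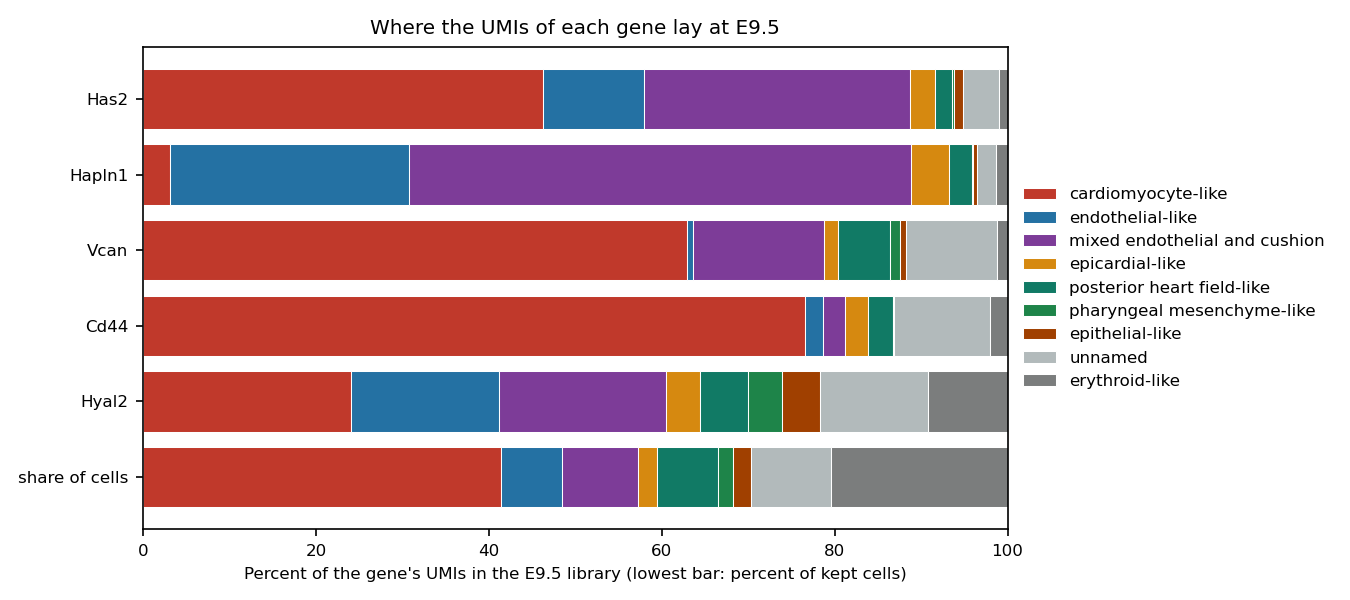
Share of each gene's E9.5 UMIs that lay in each cell class, in percent, with the share of kept cells as the lowest bar. Cardiomyocyte-like cells were 41.4% of cells and held 76.6% of Cd44, 62.9% of Vcan, 46.3% of Has2, 24.0% of Hyal2 and 3.12% of Hapln1 UMIs.

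Over the 17 E9.5 clusters, the genes whose log levels ran closest to Hapln1 among 8669 genes were Tek, which encodes the Tie2 receptor (Pearson r = 0.93), Slc9a3r2 (0.91) and the VEGF receptor gene Flt1 (0.91). For Has2 they were Edil3 (0.89), Slc1a3 (0.87) and Ctsl (0.87). For Vcan they were Pgm2, Msi2 and Atxn2 (each 0.93), for Cd44 Arl6ip5 (0.97), Slmo2 and Nkiras1 (each 0.93), and for Hyal2 Ext2, Lasp1 and Mtpn (each 0.95). Ext2 encodes an enzyme of heparan sulphate synthesis. Among the genes themselves, r was 0.07 for Hapln1 with Vcan, 0.76 for Hapln1 with Hyal2, 0.64 for Hapln1 with Has2, 0.64 for Vcan with Cd44, 0.53 for Vcan with Has2 and -0.02 for Hapln1 with Cd44. The clusters share 1 library, and these values are descriptions.

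Other genes of the pathway also differed between E9.5 classes. Ugdh, which makes the UDP-glucuronate used for hyaluronan, was at 1.92 per 10000 in the mixed cluster, 1.74 in epicardial-like, 1.46 in cardiomyocyte-like and 0.528 in endothelial-like cells. Tmem2, a cell-surface protein tied to hyaluronan breakdown, was at 1.85 in endothelial-like, 1.46 in mixed, 0.374 in epicardial-like and 0.234 in cardiomyocyte-like cells. Stab1, a scavenger receptor for hyaluronan, was at 0.739 in endothelial-like and 0.189 in mixed cells. Fbln1, a matrix protein that works with proteases that cleave versican, was at 1.73 in cardiomyocyte-like, 1.04 in mixed and 0.720 in endothelial-like cells. Cemip, another hyaluronan-degrading factor, had 3 UMIs in epicardial-like cells.

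In the mitral valve at P0, Has2 was found mainly in interstitial-like cells, the fibroblast-like mesenchyme of the leaflet. Interstitial-like cells had 0.159 per 10000 at E16.5 (2 UMIs), against 0.365 and 0.564 in the P0 replicates (14 and 8 UMIs, mean 0.464 ± 0.141 SD, n = 2). Endothelial-like cells, which line the leaflet, had 1 UMI at E16.5 and 0 at P0, where 3 counts over both libraries would be 0.0556 per 10000. The P0 interstitial-like level was thus at least 7.53-fold higher than the endothelial-like and at least 10.3-fold higher than the capillary-like level, which also had 0 UMIs. Interstitial-like cells held 77.8% (14 of 18) and 80% (8 of 10) of the Has2 UMIs of the P0 libraries, and 2 of 7 at E16.5. E9.5 endothelial-like cells were at least 3.19-fold above P0 endothelial-like cells, while the mixed cluster was 0.998-fold (0.623 to 1.67) the P0 interstitial-like level. Has2 did not pass the filter on low counts. Over the 3 mitral libraries its ratio between interstitial-like (24 UMIs) and endothelial-like cells (1 UMI) was 26.7 with a counting interval of 4.35 to 1096. Without the filter edgeR gave adjusted p = 0.000345, higher in 3 of 3 libraries, at E16.5 on 2 UMIs against 1.

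Vcan was highest in interstitial-like cells among the 3 classes named in every mitral library. Its interstitial-like levels were 3.17 per 10000 at E16.5 (40 UMIs) and 5.68 and 7.05 at P0 (218 and 100 UMIs, mean 6.36 ± 0.967 SD, n = 2). Endothelial-like levels were 0.978 at E16.5 and 1.76 and 1.68 at P0 (mean 1.72 ± 0.0514 SD, n = 2). Capillary-like cells had 0.101, 0.0663 and 0, so the classes did not overlap in these 3 libraries. Cd44 stood at 0.238, 0.834 and 1.06 in interstitial-like and at 0.217, 0.405 and 0.287 in endothelial-like cells, for E16.5 and the P0 replicates in this order. P0 replicate 2 also held macrophage-like cells with a Cd44 level of 1.61 (14 UMIs). In P0 replicate 1, unnamed cluster 6 (26 cells) had 8 of 8 macrophage markers raised. All unnamed cells of that library together held 25 of its 86 Cd44 UMIs. Clustering and naming moved some levels: at resolution 0.6 the interstitial-like levels of P0 replicate 1 were 0.480 for Hapln1 and 0.546 for Cd44. Under the first naming rule those of P0 replicate 2 were 4.47 for Vcan, 0.957 for Hapln1 and 0.522 for Cd44. That rule took in unnamed cluster 3 of this library (40 cells), with 9 of 11 interstitial and 4 of 10 cardiomyocyte markers raised. Unnamed cluster 4 of P0 replicate 1 (39 cells) had 8 of 11 interstitial and 5 of 10 cardiomyocyte markers raised. Neither cluster is in the main interstitial-like levels or tests, which therefore may not cover all P0 leaflet mesenchyme. The same limit holds at E16.5, where unnamed cells were 35.9% of kept cells. They held 59 of 120 Vcan UMIs, against 40 in interstitial-like cells. The E16.5 interstitial-like class grew from 56 cells to 107 at resolution 0.6 and 214 without the cell filter.

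Hapln1 was shared by both leaflet classes. Interstitial-like levels were 0.793 at E16.5 and 0.756 and 1.55 at P0 (mean 1.15 ± 0.562 SD, n = 2), and endothelial-like levels were 0.978, 0.608 and 1.27 (P0 mean 0.940 ± 0.470 SD, n = 2). The 2 classes overlapped. Capillary-like cells had 0 UMIs in all 3 libraries, so the P0 levels were at least 24.0-fold (interstitial-like) and at least 22.4-fold (endothelial-like) higher than theirs. At E16.5 the interstitial-like level was at least 5.26-fold higher than the capillary-like one.

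Hyal2 was higher in valve endothelium. Endothelial-like levels were 1.30, 1.99 and 1.19 at E16.5 and the P0 replicates (24, 59 and 29 UMIs). Interstitial-like levels were 0.952, 0.130 and 0.0705 (12, 5 and 1 UMIs), and capillary-like levels 0.402, 0.508 and 0.277. The interstitial-like level was thus below the endothelial-like one in each library, at E16.5 with a ratio of 0.730 whose counting interval (0.333 to 1.52) includes 1. Against capillary-like cells it was lower in both P0 replicates and higher at E16.5 (ratio 2.37, 0.889 to 6.67). The E16.5 interstitial-like value lay above both P0 values. In P0 replicate 1, unnamed cells held 45 of the 132 Hyal2 UMIs. The endothelial-like class of that library grew from 47 cells to 81 at resolution 0.6 and 79 at 1.5, so the main class may not cover all its valve endothelium. Hyal1 had 0 to 4 UMIs in each leaflet class and library.

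**Figure D4:**
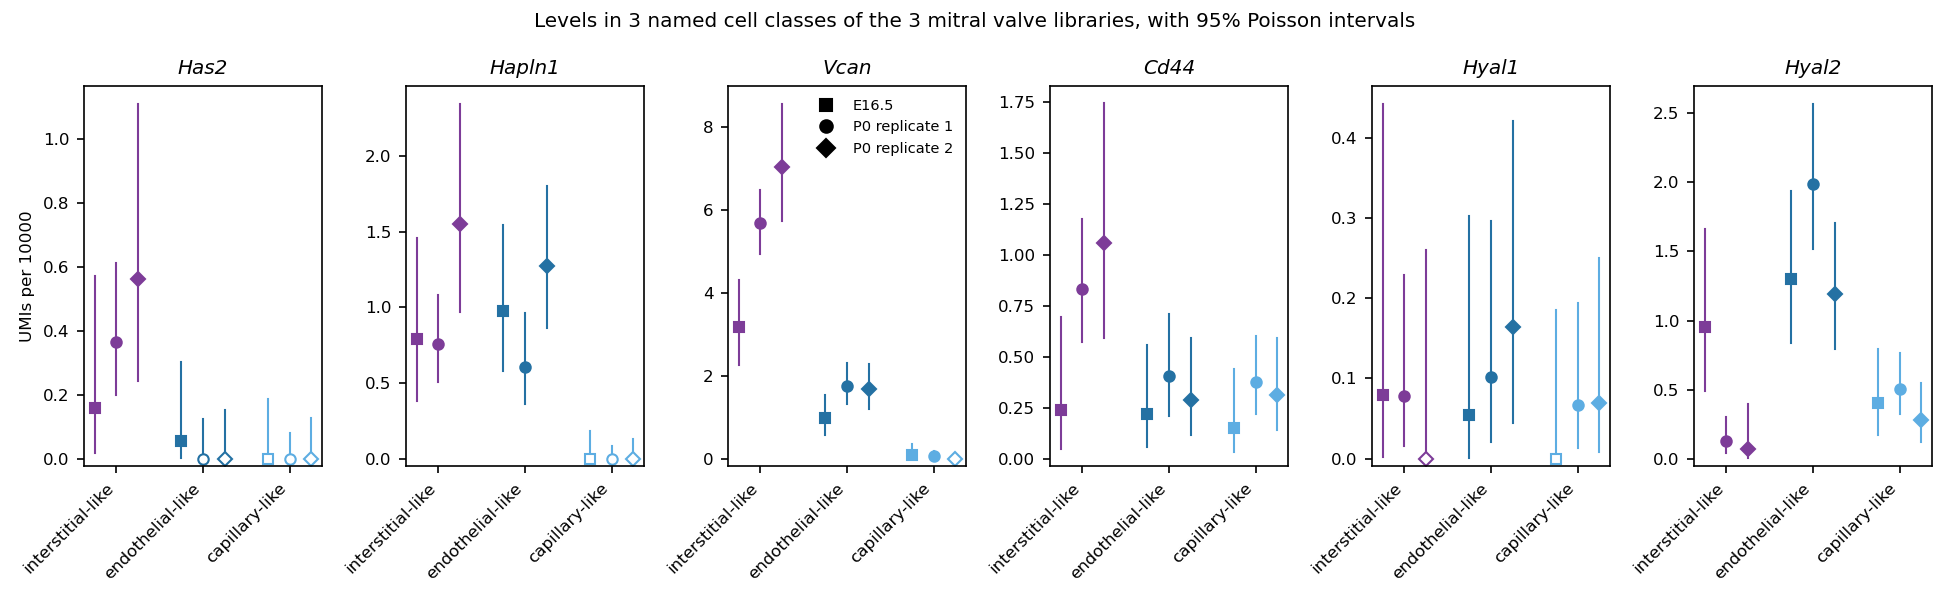
Levels of 6 genes in interstitial-like, endothelial-like and capillary-like cells of the 3 mitral valve libraries, in UMIs per 10000 with exact 95% Poisson intervals, where squares are E16.5, circles and diamonds the P0 replicates, and open symbols 0 UMIs. Vcan lay between 3.17 and 7.05 in interstitial-like cells and between 0.978 and 1.76 in endothelial-like cells.

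UMIs were summed by library and class to test these differences with edgeR's quasi-likelihood test (Benjamini-Hochberg adjustment over all genes). In the 3 mitral libraries, with library as a block, 331 of 2956 genes (11.2%) were higher and 390 (13.2%) lower (24.4% in either direction) in interstitial-like than in endothelial-like cells. Vcan was 1.85 higher on the log2 scale (SE 0.23, adjusted p = 1.63e-05), in 3 of 3 libraries. Hyal2 was lower by -2.40 (SE 0.53, adjusted p = 0.00298), in 3 of 3 libraries. That call was lost without P0 replicate 1 (-1.47, adjusted p = 0.0926) and without the library block (-2.06, adjusted p = 0.197). Without the E16.5 library it was -3.84, and adjusted p ranged from 6.95e-07 to 0.197 over 12 alternatives. Cd44 differed by 1.20 (adjusted p = 0.105) and Hapln1 by 0.17 (adjusted p = 0.77), neither past 0.05. For Cd44 the range was 0.00507 to 0.697, with a call without the cell filter (1.47, adjusted p = 0.00507) and without the E16.5 library (1.43, adjusted p = 0.0275). Interstitial-like sums held endothelial markers at 11.7 (E16.5, 8 of 12 detected), 6.33 and 6.06 per 10000 (P0, 8 and 7 of 12). Tie1 and Cldn5 were at 0 in all 3, and endothelial-like sums held interstitial markers at 15.9, 14.2 and 16.8. Their part in the class differences was not tested.

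The mixed E9.5 cluster was next set against P0 interstitial-like cells, a comparison in which stage, dissected region and library cannot be told apart. Of 2866 genes, 590 (20.6%) were higher and 686 (23.9%) lower at E9.5, 44.5% in either direction. With library totals in place of TMM the counts were 958 and 519. Hapln1 was 3.27 higher (log2, SE 0.28, adjusted p = 1.43e-28) and Hyal2 3.16 higher (SE 0.60, adjusted p = 1.07e-06). Vcan was lower by -2.31 (SE 0.28, adjusted p = 3.02e-15) and Cd44 by -4.29 (SE 0.86, adjusted p = 4.34e-06). For all 4 genes the mixed cluster lay outside the range of the P0 replicates, which the rule for a call required. The filter on low counts asked for 0.793 UMIs per 10000 in any 1 sum, and Hyal2 and Cd44 reached it only in sums other than the lower group's, as did 746 of the 1276 genes called (58.5%). Such genes had to differ, so these 2 calls support nothing by themselves. Without the filter Hyal2 was 3.38 (adjusted p = 1.07e-07) and Cd44 -4.05 (adjusted p = 1.98e-09). Without P0 replicate 1 or 2 the Hapln1 difference ranged from 2.66 to 3.72, and without replicate 1 Hyal2 was 3.81. DESeq2 gave Hyal2 3.25 with adjusted p = 0.144, the highest of 8.22e-09 to 0.144 over 8 alternatives. Erythroid markers were 84.4 per 10000 in the mixed cluster and at most 0.0261 in the P0 sums, cardiomyocyte markers 19.9 against 1.04 and 0.846, and Malat1, a nuclear RNA, 25.7 against 422 and 496. Endothelial markers were 21.5 against 6.33 and 6.06, and interstitial markers 4.05 against 143 and 136. Their part was not tested. In bulk sums such as these, a change in the mix of cells and a change within cells cannot be told apart.

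In endothelial-like cells Hapln1 was higher at E9.5 than at P0. Stage, dissected region and library cannot be told apart in this comparison either. Here 1002 of 4172 genes (24.0%) were higher and 973 (23.3%) lower at E9.5, 47.3% in either direction. Hapln1 was 2.68 higher (SE 0.33, adjusted p = 8.35e-15), and its range without P0 replicate 1 or 2 was 2.19 to 3.35. Vcan was lower by -4.49 (SE 0.47), but this call supports nothing by itself. Its E9.5 level was under the filter of 0.543 UMIs per 10000, as was the lower group of 1178 of the 1975 genes called (59.6%), and without the filter it was -4.18 (adjusted p = 2.82e-16). Hyal2 differed by -0.51 (SE 0.34, adjusted p = 0.198), so it did not pass. Cd44 was under the filter, and without it the difference was -2.64 (SE 0.69, adjusted p = 0.0013). In an edgeR interaction fit the E9.5 to P0 difference was higher on the interstitial than the endothelial side for Hyal2 (3.90, SE 0.54) and Vcan (2.28, SE 0.45). The same value was 0.55 (SE 0.37) for Hapln1 and -1.24 (SE 1.02) for Cd44. The Hyal2 value rests on P0 interstitial-like sums of 5 and 1 UMIs. The Vcan value rests on 17 UMIs in the E9.5 endothelial-like sum, and all these sums were under the filter. The spread of this fit comes from the P0 libraries alone, so its values are descriptions. Erythroid markers were 67.3 per 10000 in the E9.5 sum against 1.01 and 0.0821, cardiomyocyte markers 16.5005 against 1.08 and 2.18, interstitial markers 1.37 against 14.2 and 16.8, and Malat1 16.9639 against 457 and 479. Their part was not tested.

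E16.5 was compared with the same P0 libraries, so these results share their controls with the E9.5 ones. In interstitial-like cells 466 of 2866 genes (16.3%) were higher and 379 (13.2%) lower at E16.5 (29.5% in either direction), and with library totals 277 and 665. Hyal2 was 3.46 higher (SE 0.80, adjusted p = 0.000155). It passed the filter only through the E9.5 and E16.5 sums, as the lower group was under the filter for 388 of the 845 genes called (45.9%), so the call supports nothing by itself. Without the filter it was 3.29 (adjusted p = 0.00107), and without P0 replicate 1 it was 4.10. The E16.5 sum rests on 12 UMIs, and its level of 0.952 was 0.442 without the filter on cells and 0.444 when the hyaluronan genes entered the clustering. DESeq2 gave no adjusted p for Hyal2 here. Endothelial markers were also higher in the E16.5 interstitial-like sum (11.7 against 6.33 and 6.06 per 10000), and their part was not tested. Vcan differed by -0.58 (adjusted p = 0.154) and passed with library totals (-1.05, adjusted p = 0.0065), without the cell filter (-0.71, adjusted p = 0.0392) and with the hyaluronan genes in the clustering (-0.90, adjusted p = 0.0127), in a range of 0.0065 to 0.576 over 8 alternatives. Hapln1 (0.02, adjusted p = 0.983, and -0.60 without P0 replicate 1) and Cd44 (-1.55, adjusted p = 0.295) did not pass.

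In endothelial-like cells 521 of 4172 genes (12.5%) were higher and 403 (9.66%) lower at E16.5 (22.1% in either direction), and with library totals 279 and 825. Hapln1 (0.55, SE 0.48, adjusted p = 0.445), Vcan (-0.35, SE 0.46, adjusted p = 0.637) and Hyal2 (0.17, SE 0.43, adjusted p = 0.817) did not pass. Without P0 replicate 1 the Hapln1 value was 0.07 and without replicate 2 it was 1.18. Hapln1 passed without the filter on cells (1.07, adjusted p = 0.0164), in a range of 0.0164 to 0.967. The E16.5 difference of Hyal2 between sides was 3.47 (SE 0.75, adjusted p = 0.185), so a difference between the sides was not shown. Malat1 was 7.85 per 10000 in the E16.5 interstitial-like sum against 422 and 496 at P0, and 7.28 against 457 and 479 in the endothelial-like sums. Ribosomal protein genes took 3125 against 2235 and 2314, and 2906 against 1924 and 2150. By length, median log2 differences from the shortest to the longest quartile of genes were 0.74, -0.24, -0.36 and -0.58 in interstitial-like cells. Vcan, Hapln1 and Cd44 are in the longest quartile, and the part of length and RNA quality was not tested.

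**Figure D5:**
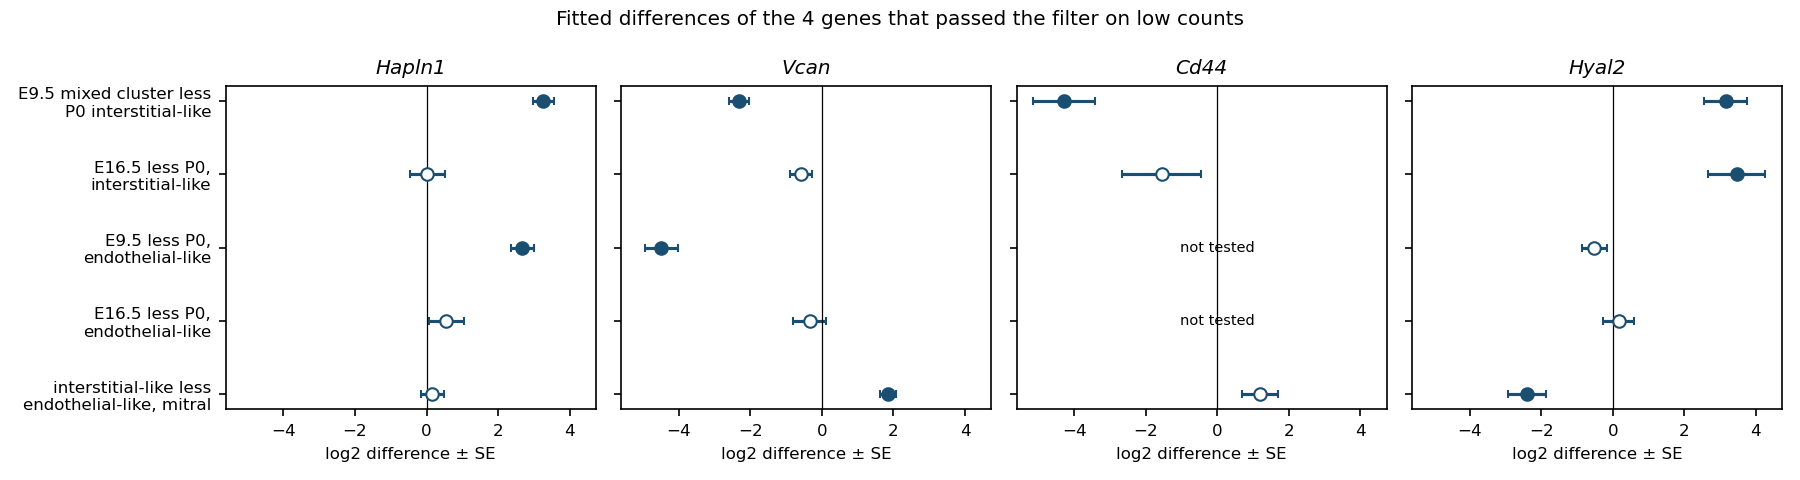
Fitted log2 differences with standard errors for the 4 genes that passed the filter on low counts, in 5 comparisons, where filled points passed an adjusted p of 0.05 and open points did not. Hapln1 was higher at E9.5 by 3.27 and 2.68 and Vcan lower by -2.31 and -4.49, the last with its E9.5 sum under the filter. E16.5 less P0 passed for Hyal2 in interstitial-like cells (3.46), where the P0 sums were under the filter.

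The 51 other genes of the pathway are given by counts and medians, which are descriptions only, since many passed the filter through the higher group alone. In the mitral class comparison 13 were tested, of which 6 were higher in interstitial-like cells, 4 lower and 3 did not pass, with a median log2 difference of 0.05 against -0.01 over all genes. Higher were Fbln1 (5.71), Itih5 (5.67), Ugdh (2.75), the chondroitin synthase gene Chsy1 (1.14), Chpf (66 UMIs against 1, ratio 73.3, 12.7 to 2939) and Tnfaip6 (45 against 1, ratio 49.98, 8.52 to 2018). Itih5 belongs to the family of hyaluronan-binding inhibitor heavy chains, and Tnfaip6 encodes a hyaluronan-binding protein that transfers such chains. Lower were the receptor genes Stab1 (2 UMIs against 79, ratio 0.0281, 0.00335 to 0.105) and Lyve1 (1 against 42, ratio 0.0264, 0.000654 to 0.156), with Tmem2 (-2.97) and Adamts1 (-1.51), which encodes a protease that cleaves versican. In 9 of these 10, all but Adamts1, the lower class was under the filter in every library, as for 63.7% of all genes called. Without the filter all but Chsy1 (1.15, adjusted p = 0.0618) were called. Chsy1 (adjusted p = 0.176 and 0.204) and Tnfaip6 (0.465 and 0.105) lost the call without P0 replicate 1 or 2, and Lyve1 without replicate 2 (0.119). Without the library block Adamts1 (adjusted p = 0.222), Chsy1 (0.126), Lyve1 (0.12) and Tnfaip6 (0.0948) were not called. DESeq2 did not call Chsy1 (adjusted p = 0.237) or Adamts1 (0.0577).

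Between the mixed E9.5 cluster and P0 interstitial-like cells 11 were tested, with 1 higher, 6 lower and 4 not passing, and a median of -1.37 against 0.02 over all genes. Tmem2 was higher (1.47, adjusted p = 0.00487). Tnfaip6 (-5.05), Chpf (-2.65), Adamts1 (-1.99), Fbln1 (-1.58) and Chsy1 (-1.37) were lower, and Itih5 had 1 UMI against 146 and 42 (ratio 0.00123, 3.1e-05 to 0.00693). The lower group was under the filter for 6 of these 7, all but Fbln1, and without the filter Chsy1 was not called (-1.15, adjusted p = 0.0551). Of these 7 genes DESeq2 called Itih5 and Tnfaip6, and without P0 replicate 1 Adamts1 was -1.19. In endothelial-like cells at E9.5, 10 were tested, 1 higher, 4 lower and 5 not passing, with a median of -0.38 against -0.01. Fbln1 was higher (146 UMIs against 2 and 0, ratio 19.4, 5.28 to 162), and Adamts5 (-4.37), Adamts1 (-2.60), Lyve1 (-2.20) and Tmem2 (-0.96) were lower. Only Tmem2 of these 5 had its lower group over the filter, and without the filter it was not called (-0.65, adjusted p = 0.154). DESeq2 did not call Fbln1 (adjusted p = 0.236), Lyve1 (0.332) or Tmem2 (0.419).

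For E16.5 against P0 in interstitial-like cells 11 were tested, 1 higher, 2 lower and 8 not passing, with a median of -0.39 against -0.10. Fbln1 was higher (1.37, adjusted p = 0.00048), Ugdh lower (-1.30, adjusted p = 0.0379), and Tnfaip6 had 0 UMIs against 32 and 13, at least 3.60-fold lower. Tnfaip6 passed the filter only through P0, was called in 4 of 7 alternatives, and without the filter had adjusted p = 0.0164. Ugdh was called in 5 of 8 alternatives (adjusted p up to 0.352) and Fbln1 in 7 of 8 (0.105 with DESeq2). In endothelial-like cells 10 were tested, 0 higher, 2 lower and 8 not passing, with a median of -0.18 against -0.12. Lyve1 had 1 UMI against 24 and 17 (ratio 0.0715, 0.00177 to 0.422), and Tmem2 was lower by -1.42 (adjusted p = 0.0105). Lyve1 passed the filter only through P0, as the lower group was under it for 43.7% of all genes called, and had adjusted p = 0.0322 without the filter. At Leiden resolution 0.6 neither gene was called (adjusted p = 0.14 and 0.115), at 1.5 Lyve1 was not (0.126), and with DESeq2 Tmem2 was not (0.18). These lists were chosen with results known, and the shares called stand beside the backgrounds given above.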

How the data were processed

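The deposited matrices hold raw UMI counts, which the authors obtained with Cell Ranger 2.1.1 and build mm10, per the submitters' processing notes. Per the labels, digestion took 5 or 10 min and ended with 10% serum, cells were sorted on tomato, and NextSeq 500 reads of the 3′ libraries had 57 nt. Counting strand, settings and the rule for keeping cells are not given here. Reporter transcripts were not among the counted genes, so the sort was not checked. Cells were used by matrix column because the P0 barcode lists did not match the matrices in length. If the matrices are the exchanged files, the P0 replicate numbers are swapped. The age label of the E16.5 library is mistyped, so its stage was taken from the title.

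Cells with under 500 genes, over 10% mitochondrial UMIs or a doublet call (7, 5, 1 and 6 cells) were left out. Libraries were clustered separately (scanpy 1.11.5 with igraph 0.11.9 and anndata 0.12.19 under Python 3.11.15, pandas 2.3.3, scipy 1.17.1 and numpy 2.4.6; Leiden resolution 1.0, seed 0, 2000 variable genes, 20 components, 15 neighbours). The 58 pathway genes were kept out of clustering and naming. Clusters were named from 20 marker lists: at least 3 markers raised 2-fold and present in 10% of cells, the next name at most 0.75 times as complete, and no tie with another name that had at least 3 counted markers. A cluster with at least 4 endothelial and 4 cushion markers was called mixed. The naming rule was revised after clusters and levels were seen and before any count test, and its first version is an alternative. Clusters without a name held 111, 112, 102 and 40 cells.

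Counts were summed per library and class: 105, 56, 74 and 34 cells on the interstitial side, and 85, 69, 47 and 46 endothelial-like. They were tested with edgeR 4.0.16 (R 4.3.3, limma 3.58.1) by TMM and quasi-likelihood, keeping genes whose CPM in any sum was at least that of 10 counts in the smallest. Stage fits have 1 residual degree of freedom, from P0, which the unreplicated E9.5 and E16.5 libraries are assumed to share. Their prior degrees of freedom were infinite, so all genes took 1 pooled spread and no gene's own spread entered its adjusted p. In the class fit they were 13.51. A stage difference was called at adjusted p under 0.05 where the single library lay above or below both P0 values. Cluster ratios are exact conditional binomial at 95%, and floors are 3 counts. Alternatives were library totals, DESeq2 1.42.0, no low-count filter, no cell filter, Leiden resolution 0.6 and 1.5, the hyaluronan genes in the clustering, leaving out libraries and, in the class fit, no replicate block. The interaction fit, cluster pairs, motifs and promoters were chosen after the data were seen. Named pathway genes are all those called, and likeness used genes with at least 200 UMIs at E9.5. Members and lists were chosen with earlier results of these data known. Positions are from GENCODE on GRCm38 and sequences from RefSeq. The fit was tested on simulated data.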

Additional observations from a re-analysis of the deposited data

Results flagged for a closer look

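In the edgeR interaction fit the E9.5 to P0 difference of Hyal2 and Vcan was flagged as unlike on the 2 sides of the valve. The log2 difference of E9.5 from P0 was higher on the interstitial side by 3.90 for Hyal2 (SE 0.54). For Vcan it was higher by 2.28 (SE 0.45), since the level at E9.5 lay less far below P0 on that side. The Hyal2 value rests on 5 and 1 UMIs in the P0 interstitial-like sums. The Vcan value rests on 17 UMIs in the E9.5 endothelial-like sum, and all these sums were under the filter. The spread of the fit comes from the P0 libraries alone, so both values are descriptions. E9.5 is 1 library whose interstitial side is the mixed cluster, so library, region and stage cannot be told apart. Groups of 4 or more samples did not occur, so no sample could be tested as an outlier.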

How the results depend on the processing

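No called difference of the hyaluronan genes or the named pathway genes changed sign in any alternative run. Counts of genes called moved by over 1.5 times in some. With library totals in place of TMM, E16.5 interstitial-like cells had 277 higher and 665 lower (main 466 and 379), E16.5 endothelial-like cells 279 and 825 (main 521 and 403), and the mixed cluster 958 higher (main 590). This scaling moved the median of all genes from -0.10 to -0.56 in the first and from -0.12 to -0.64 in the second. DESeq2 called 194 and 59, 242 and 61, and 40 and 287 in these 3 comparisons, 129 and 332 for E9.5 endothelial-like cells (main 1002 and 973), and 213 and 239 between classes (main 331 and 390). With no filter on low counts, 1071 (mixed cluster) and 1773 (E9.5 endothelial-like) were higher. Without the cell filter 1525 were higher in E9.5 endothelial-like cells and 564 between classes. Leiden resolution 0.6 gave 255 and 68 for E16.5 endothelial-like cells. The cause was not tested. In the class fit, leaving out 1 library gave 168 to 407 genes higher and 203 to 407 lower, with the lowest of each without P0 replicate 1, and no replicate block gave 123 and 165.

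Without the replicate block Hyal2 between classes was -2.06 (adjusted p = 0.197). For the stage comparisons, no paired analysis was possible because the labels number only the P0 libraries, so the groups share fewer than 2 numbers. The class comparison was paired, with library as the block. The first naming rule, added after seeing the data, changed no member's call: Hyal2 was 3.17 (adjusted p = 0.000218) in E16.5 interstitial-like cells and -2.37 (adjusted p = 0.000771) between classes. At E16.5, 2356 UMIs per cell limit the detection of Has2, Hyal1 and Cd44, each with 1 to 4 UMIs in a leaflet class.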
